A study of Mus musculus with 3 samples.

Results

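The keratin gene family was described in single cells of embryonic mouse thymic lobes. Its members were all genes whose symbol in the deposited gene lists was Krt followed by a number and, in some cases, a letter, which gave 51 of 27998 genes. The lobes were taken at e13 to e13.5 from C57BL/6 embryos, dissociated with trypsin and run as 3′ droplet single cell RNA-Seq, with 1 library for each of 3 genotypes. The control library was wild type for both genes. The Tbx1neo2/neo2 embryos carried a neomycin cassette in an intron of both copies of Tbx1, a T-box transcription factor of the pharyngeal pouches. The Foxn11089/1089 embryos were homozygous for a short deletion in Foxn1, the transcription factor that drives thymic epithelial cell development. Both alleles were present in every cell of the embryo and not limited to the epithelium, and the number of embryos behind a library was not given in the sources used here. With 1 library a genotype there was no replicate and no test between genotypes, and every interval covers counting error only.

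The libraries held 6410 barcodes in control, 5759 in Tbx1neo2/neo2 and 12447 in Foxn11089/1089, with 82936619, 137498422 and 204655055 unique molecular identifiers (UMIs, one per captured transcript end), and 17 to 28 barcodes were shared by a pair of libraries. Over all kept cells Tbx1 stood at 1.39 CPM (UMIs of a gene per 1000000 UMIs) in control, 4.81 CPM in Tbx1neo2/neo2 and 5.43 CPM in Foxn11089/1089. The library with the Tbx1 allele was thus not the lowest in Tbx1. Tbx1 was scarce in all libraries, with 114, 656 and 1102 UMIs. Its counting intervals were still apart, at [1.15, 1.67] CPM in control and [4.44, 5.19] CPM in Tbx1neo2/neo2. The paper describes the allele as one that lowers Tbx1, so the counts do not bear out that label. The reason was not tested, and the library is called "the library labelled Tbx1neo2/neo2". Foxn1 stood at 38.4, 34.6 and 76.5 CPM, which checks nothing, since a short deletion leaves the tagged transcript end in place. Epcam, an adhesion protein of epithelial cells, chose the cells called Epcam-positive, at 2 or more UMIs and 100 or more CPM. They numbered 1873 in control (31.6% of kept cells), 765 in the library labelled Tbx1neo2/neo2 (13.9%) and 3574 in Foxn11089/1089 (30.4%), with median depths of 16390, 45714 and 20117 UMIs. Of 9 other epithelial genes, 8, 8 and 9 were at least 10-fold higher in these cells than in Epcam-negative cells. Summed mesenchymal, hematopoietic and endothelial markers stood at 3.15 to 29.6 CPM against 733 to 3637 CPM in the cells they define. That gap describes the gates and is no check, since cells with Epcam and another class's markers were set apart (175, 81 and 598 cells). Median mitochondrial shares of the Epcam-positive cells were 2.55%, 5.63% and 5.69%.

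The Epcam-positive cells were split by gates on 6 genes. Pth-high cells, with parathyroid hormone transcripts, numbered 25, 0 and 330 in control, Tbx1neo2/neo2 and Foxn11089/1089. Thyroid-marker cells carried at least 2 of Foxe1, Nkx2-1 and Pax8, and numbered 4, 107 and 6. They are named by that gate alone. The 4 further thyroid genes were read over all Epcam-positive cells, where 0 passed 10-fold in any library. The highest fold was 9.85, in the library labelled Tbx1neo2/neo2. Most Epcam-positive cells were not thyroid-marker cells, so this does not check what the gate chose. Krt5-high cells stood at or above the 90th percentile of Krt5 in the control library, which was 3010 CPM, and numbered 188 (10.04% of Epcam-positive cells), 65 (8.50%) and 76 (2.13%). Psmb11-positive cells, with transcripts of the cortical thymoproteasome subunit, numbered 1010, 359 and 221. The others, which passed no gate, numbered 646, 234 and 2941. Krt5 and Psmb11 could mark the same cell, as in 50, 26 and 9 cells, which were placed with the Krt5-high cells.

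Keratins are the intermediate filament proteins of epithelia. Acidic type I and basic type II keratins assemble only as pairs, so an epithelial cell makes at least 1 of each. Krt8 (type II) and Krt18 (type I) form the filaments of simple epithelia, and Krt5 (type II) and Krt14 (type I) those of basal cells in stratified epithelia. Krt6a, Krt16 and Krt17 are known from activated and appendage epithelia, Krt1 and Krt10 from the differentiated layers of epidermis, Krt7, Krt19 and Krt20 from ducts and other simple linings, the Krt31 to Krt36 and Krt81 to Krt86 groups from the hair shaft, and Krt71 to Krt75 from the sheath around it. In the mature thymus the cortex is typically stained by keratin 8 and 18 and the medulla by keratin 5 and 14.

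The family counted 28 type I and 23 type II members, with 27 genes on chromosome 11 and 24 on chromosome 15 (GRCm38). Krt18 was the single type I gene on chromosome 15, at chr15:102028180-102032027, with its partner Krt8 at chr15:101996698-102004482, 23.7 kb away. Krt5 (chr15:101707070-101712898) lay between Krt6a and Krt71. On chromosome 11, Krt15 (chr11:100131758-100135928) and Krt19 were 4.88 kb apart, and Krt17 (chr11:100256217-100261029) followed Krt14 and Krt16. RefSeq promoter windows of 250 bases before to 50 bases after the annotated start were found for 35 members, of which 14 were measured here. The RefSeq starts of Krt7, Krt8, Krt14 and Krt18 lay inside the gene as annotated, so their windows need not cover its first start. Krt6a, Krt16 and Krt17 were among the measured members without a window. The motif TATAAA, read on the gene's own strand and starting 35 to 24 bases before the start, was in 12 of 36 keratin windows (33.3%) against 1.75% of 32851 promoters of all genes, and in 3 of the 14 measured members. On both strands of the 250 bases before the start, TATAAA was in 47.2% of keratin windows against 12.4% of all, GGGCGG in 5.56% against 32.7%, and GCCNNNGGC, which reads the same on both strands, in 11.1% against 13.7%. The 100 bases before the RefSeq start are printed 5′ to 3′ for the 3 measured members with TATAAA near the start (in capitals) and, for comparison, for 3 members that the results turn on and that have no match there.
Krt10, type I, minus strand, chr11:99389365-99389464: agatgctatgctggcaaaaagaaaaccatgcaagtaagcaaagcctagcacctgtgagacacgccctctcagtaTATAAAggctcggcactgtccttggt
Krt12, type I, minus strand, chr11:99422260-99422359: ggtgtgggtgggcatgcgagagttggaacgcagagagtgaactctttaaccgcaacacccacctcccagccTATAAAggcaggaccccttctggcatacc
Krt20, type I, minus strand, chr11:99438154-99438253: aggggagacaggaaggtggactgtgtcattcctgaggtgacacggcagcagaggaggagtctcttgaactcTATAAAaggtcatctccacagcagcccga
Krt5, type II, minus strand, chr15:101712906-101713005: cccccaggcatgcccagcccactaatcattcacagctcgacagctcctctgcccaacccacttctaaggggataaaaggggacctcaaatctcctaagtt
Krt72, type II, minus strand, chr15:101786521-101786620: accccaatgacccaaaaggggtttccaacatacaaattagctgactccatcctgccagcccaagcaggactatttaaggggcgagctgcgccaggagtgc
Krt18, type I, plus strand, chr15:102028116-102028215: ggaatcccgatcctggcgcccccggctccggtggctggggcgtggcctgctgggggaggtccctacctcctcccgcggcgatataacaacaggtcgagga
A match is a string of letters and no measured binding site, and Krt10, Krt12 and Krt20 spanned the range from common to rare transcripts in these cells.

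In Epcam-positive cells 21 members were measured, meaning 30 or more UMIs summed over the 3 libraries. They were 12 type I and 9 type II genes. Another 23 members were traces of 1 to 29 UMIs (Krt2, Krt4, Krt6b, Krt13, Krt23, Krt25, Krt28, Krt31, Krt32, Krt33a, Krt34, Krt39, Krt42, Krt71, Krt76, Krt78, Krt80, Krt81, Krt82, Krt83, Krt84, Krt86 and Krt222). The remaining 7 (Krt9, Krt24, Krt26, Krt27, Krt40, Krt73 and Krt74) had 0 UMIs there, and Krt40, Krt73 and Krt74 had 0 in every kept cell. Of the keratins of the hair shaft and its sheath, Krt33b, Krt35, Krt36, Krt72 and Krt75 were measured, and the others were traces or at 0. All Krt UMIs together made up 0.422% of UMIs in control Epcam-positive cells, 0.442% in the library labelled Tbx1neo2/neo2 and 0.129% in Foxn11089/1089.

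Krt18, Krt8, Krt5 and Krt17 supplied 96.5%, 96.7% and 90.9% of the keratin UMIs of the Epcam-positive cells in control, Tbx1neo2/neo2 and Foxn11089/1089. Levels are given in that order throughout, as CPM of the summed cells, and since each UMI tags 1 transcript end they were not scaled by transcript length. Krt18 stood at 2304, 1627 and 376 CPM and Krt8 at 688, 1513 and 485 CPM. Krt5 stood at 640, 836 and 245 CPM, and Krt17 at 445, 298 and 22.4 CPM. The order of the first 3 genes differed between libraries, with Krt18 first in control and in the library labelled Tbx1neo2/neo2 and Krt8 first in Foxn11089/1089. Below them came Krt10 at 46.8, 36.0 and 50.8 CPM and Krt19 at 38.8, 53.5 and 62.6 CPM. Krt14, the usual type I partner of Krt5 in basal cells, stood at 15.8, 11.4 and 1.45 CPM, far under Krt5 in every library. Krt17, another type I gene, was at a level closer to that of Krt5 in control.

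The remaining measured members stayed under 25 CPM. Krt15, a type I keratin of basal cells, stood at 4.36, 5.24 and 24.5 CPM, so Foxn11089/1089 alone was high. Krt7 stood at 8.44, 19.3 and 4.29 CPM, highest in the library labelled Tbx1neo2/neo2. Krt6a (7.91, 4.18 and 0.565 CPM), Krt72 (6.56, 3.78 and 0.144 CPM), Krt16 (3.23, 2.01 and 0.0481 CPM) and Krt77 (1.98, 0.969 and 0.373 CPM) were all lowest in Foxn11089/1089. Krt1 stood at 6.31, 4.97 and 6.09 CPM. Krt36, Krt33b, Krt75, Krt12, Krt79, Krt35 and Krt20 lay between 0.0942 and 1.87 CPM in all libraries. Krt14 and Krt17 each share 9.53% of the 50-base words of their last 500 transcript bases within the trio of Krt14, Krt16 and Krt17, Krt16 shares 16.9% with that pair and Gm11597, and Krt33b shares 2.88% with Krt31, so a part of their UMIs could have been split or lost between copies.

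The shares of cells with a UMI followed depth as well as level. Krt8 was seen in 98.3%, 99.6% and 96.4% of Epcam-positive cells and in 63.7%, 80.5% and 54.4% after each cell was thinned to 2000 UMIs. Krt18 was seen in 98.8%, 99.7% and 90.9%, and in 81.3%, 72.9% and 43.3% after thinning. In hematopoietic cells, which should lack keratins, Krt8 was seen in 8.43%, 24.3% and 13.3% (the median cell held 19585, 57666.5 and 25618 UMIs), and in 1.16%, 1.69% and 2.02% after thinning. Krt5 was seen in 35.9%, 47.2% and 24.6% of Epcam-positive cells (21.8%, 18.4% and 14.3% thinned) against 5.72%, 13.5% and 6.94% of hematopoietic cells. Krt17 was seen in 33.7%, 38.0% and 14.9% (15.8%, 11.6% and 2.97% thinned). Krt14 was seen in 13.99%, 18.8% and 2.32%, and Krt15 in 5.71%, 12.4% and 24.3%, while Krt14 had 0 UMIs in the hematopoietic cells of all 3 libraries and Krt15 had 0, 1 and 2. Krt10 was seen in 53.2%, 76.3% and 63.4%. Krt8 and Krt18 were thus seen in nearly every Epcam-positive cell, and the other keratins in fewer cells, which at this depth does not show that they were absent from the rest.

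**Figure D1:**
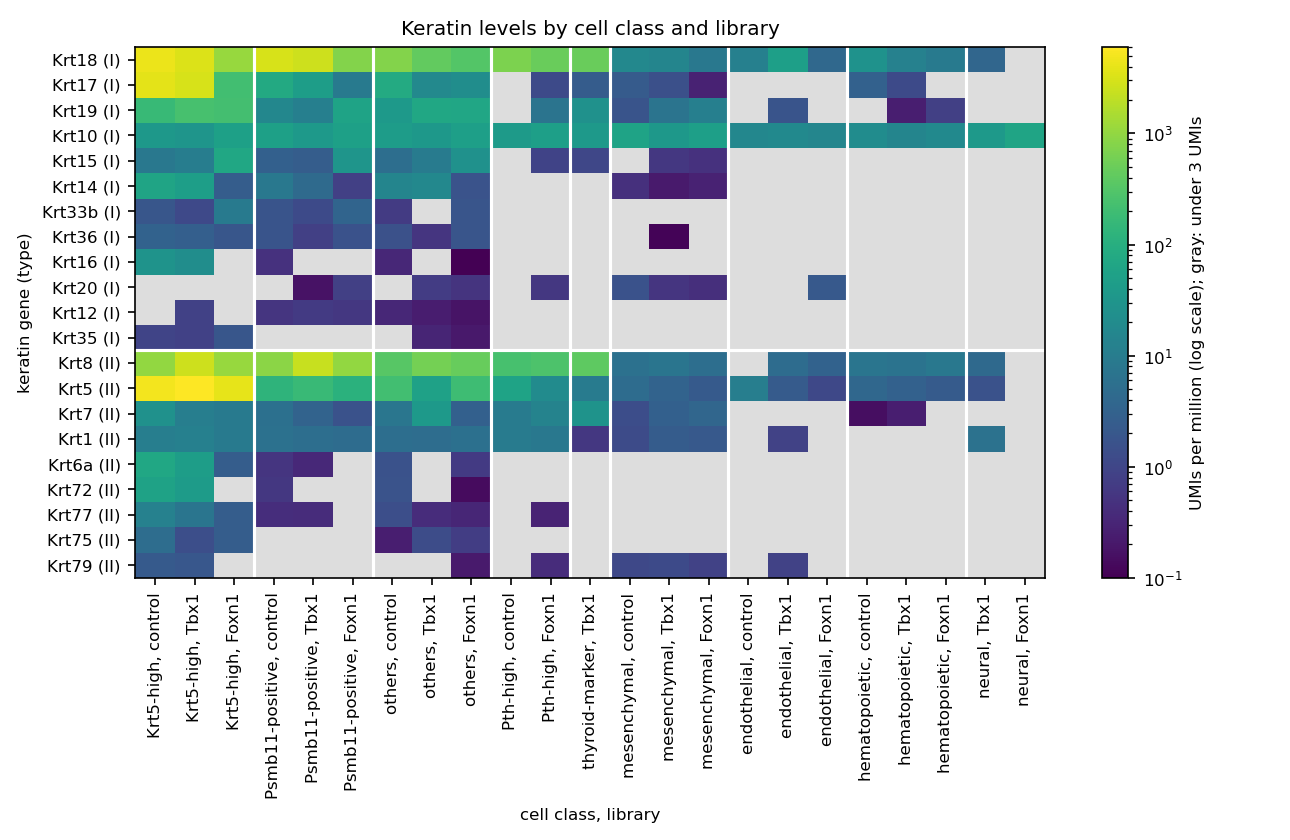
Levels of the 21 measured keratins (rows, type I and type II apart) in each class of cells and library (columns), as CPM on a log colour scale, with gray for under 3 UMIs. Krt8 and Krt18 are high in every Epcam-positive class, Krt17, Krt14, Krt6a, Krt72 and Krt16 are highest in Krt5-high cells of the control and the library labelled Tbx1neo2/neo2, and Krt10 runs across all classes.

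Most keratins with 30 or more UMIs marked the Epcam-positive cells, and Krt10, Krt7 and Krt1 were the exceptions in control. Of the measured members under that limit in control, Krt20 (3 against 20 UMIs) and Krt79 (9 against 14) were not higher. Krt12, Krt35 and Krt75 had UMIs in the Epcam-positive cells only. Against Epcam-negative cells, Krt6a was 304-fold, Krt72 252-fold, Krt5 111-fold and Krt17 98.7-fold higher in the control library. The Krt6a and Krt72 folds each rested on 1 UMI in Epcam-negative cells, with intervals of 54.0 to 12042 and 44.7 to 9995. Their rank above Krt5 and Krt17 is therefore not settled. Krt14 was 43.4-fold, Krt8 27.5-fold, Krt18 25.4-fold and Krt19 13.8-fold higher. Krt1 was 8.65-fold higher, Krt7 2.72-fold and Krt10 1.40-fold. At 10-fold or more, 13 of 16 keratins with 30 or more UMIs were higher in control, where the background was 4.27% of 14430 genes. Among the 13, Krt6a, Krt14, Krt15, Krt16, Krt33b, Krt36, Krt72 and Krt77 reached 30 UMIs through the Epcam-positive cells alone. That favours such a call, and the genes of the background met the same limit. In the library labelled Tbx1neo2/neo2 11 of 19 passed (background 3.23%), and in Foxn11089/1089 10 of 17 passed (background 5.32%). The median keratin log2 ratios were 4.74, 3.59 and 4.98, against 0.12, 0.05 and 0.47 for all genes. Krt5 took part in the choice of a subgroup and not of the Epcam-positive cells, so its ratio is no product of the gate.

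Krt5-high cells held the most keratin transcript of all classes, with a summed level of 14698, 17862 and 6760 CPM, against 4223, 5288 and 2088 CPM in Psmb11-positive cells. Without Krt5 the sums were 9708, 9512 and 2817 CPM against 4093, 5116 and 1977 CPM. The Krt5 gate chose the first of these, so its Krt5 levels of 4990, 8351 and 3943 CPM describe the gate and count as no finding, and genes of the same cells are not independent of it. Krt17 was the most abundant keratin after Krt18 and Krt5 in control Krt5-high cells. Its levels there were 3786, 3059 and 213 CPM, and in Psmb11-positive cells 80.3, 46.5 and 9.30 CPM. A Krt17 UMI was present in 98.9%, 96.9% and 48.7% of Krt5-high cells, and the median cell held 2798, 1993 and 0 CPM. Krt14 stood at 61.3, 47.2 and 2.52 CPM in Krt5-high cells and 8.02, 4.54 and 0.809 CPM in Psmb11-positive cells.

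In the control and the library labelled Tbx1neo2/neo2 most UMIs of Krt6a, Krt72, Krt16 and Krt77 were in Krt5-high cells. Krt6a, a type II keratin of activated epidermis, had 224, 161 and 4 UMIs in Krt5-high cells (71.5, 44.9 and 2.52 CPM) and 9, 6 and 0 in Psmb11-positive cells. Krt72, a type II keratin of the inner root sheath of hair, had 179, 149 and 2 UMIs (57.1, 41.6 and 1.26 CPM) against 10, 1 and 0. Krt16, the usual type I partner of Krt6a, had 91, 80 and 0 UMIs (29.05 and 22.3 CPM, and at 0 UMIs up to the 1.89 CPM that 3 UMIs would give) against 8, 1 and 0. Krt77, an epidermal type II keratin, stood at 12.4, 7.26 and 2.52 CPM, from 39, 26 and 4 of its 63, 39 and 31 UMIs. In Foxn11089/1089, 43 of 47 Krt6a UMIs and 22 of 31 Krt77 UMIs were in the others. A Krt6a UMI was seen in 31.9% of the control and 40.0% of the Krt5-high cells labelled Tbx1neo2/neo2, so not every such cell carried it.

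In the control library 10 of 16 keratins were at least 2-fold higher in Krt5-high than in Psmb11-positive cells, against a background of 10.2% of genes, and 0 were lower (background 11.2%). Without Krt5, which the gate chose, 9 of 15 were higher. The log2 ratios of the 10 were 7.03 [95% interval 6.08, 8.18] for Krt6a, 6.56 for Krt72, 5.90 for Krt16, 5.56 [5.48, 5.64] for Krt17, 5.26 for Krt5, 4.87 for Krt77, 3.33 for Krt19, 2.93 for Krt14, 2.18 for Krt7 and 1.48 for Krt15. The median was 2.56, or 2.18 without Krt5, against -0.08 for all genes. Krt8 (0.20), Krt18 (0.54) and Krt10 (-0.53) did not reach 2-fold, so the simple epithelial pair was present at similar levels in both subgroups. In the library labelled Tbx1neo2/neo2 11 of 14 were higher (background 9.36%) and 0 lower (background 10.3%), with Krt1 at 1.20 as the addition and a median of 3.77 against -0.12 (10 of 13 and 3.38 without Krt5). In Foxn11089/1089 5 of 9 were higher (background 7.19%) and 0 lower (background 8.07%), namely Krt5, Krt15, Krt17 (4.52), Krt19 (1.93) and Krt33b (1.36), with a median of 1.17 against -0.03 (4 of 8 and 1.07 without Krt5). Fewer keratins could be compared in Foxn11089/1089, because Krt6a, Krt7, Krt14, Krt16, Krt36, Krt72 and Krt77 fell under 30 UMIs there. In the other libraries Krt6a, Krt72 and Krt16, and in control also Krt77, reached 30 UMIs through the Krt5-high cells alone. That favours a higher call, and the genes of the background met the same limit.

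**Figure D2:**
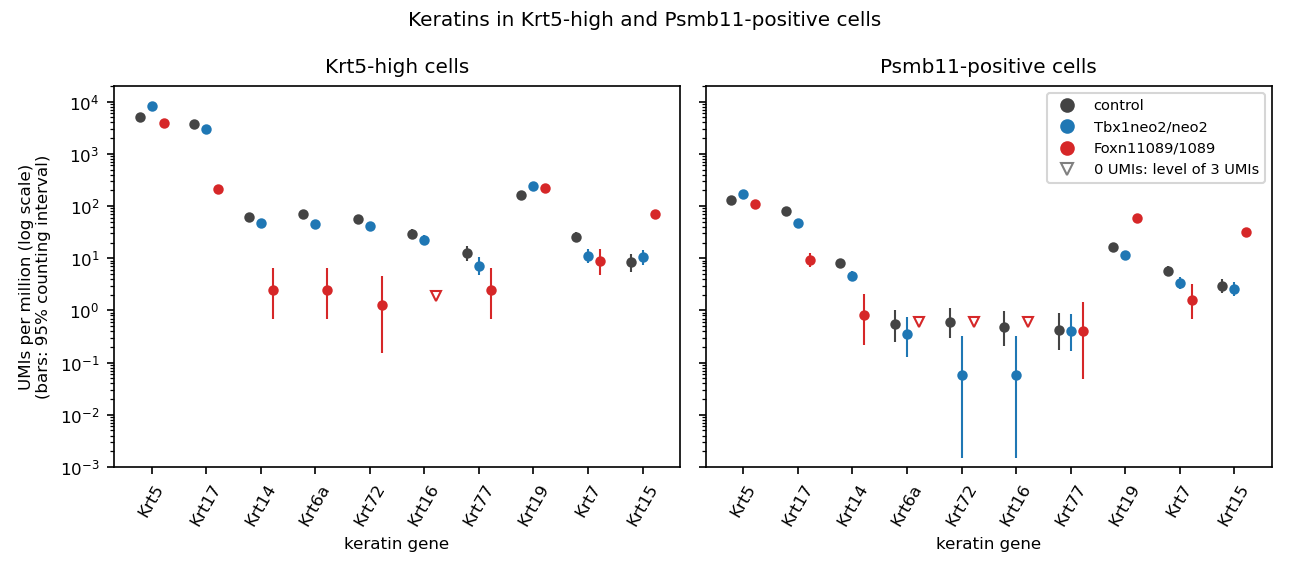
Levels of 10 keratins in CPM (log axis) in Krt5-high cells (left) and Psmb11-positive cells (right) of the 3 libraries, with 95% counting intervals and an open triangle, at the level of 3 UMIs, where no UMI was seen. Krt17 is at 3786 CPM in control and 213 CPM in Foxn11089/1089 Krt5-high cells. Krt15 is the member whose level in Krt5-high cells is highest in Foxn11089/1089 among the 3 libraries.

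The Pth-high cells carried mainly the simple pair. In the control and Foxn11089/1089 libraries Krt18 stood at 678 and 492 CPM, Krt8 at 245 and 277 CPM, Krt10 at 39.7 and 50.5 CPM and Krt5 at 59.5 and 20.2 CPM. Krt7 stood at 9.92 CPM (3 UMIs) and 13.9 CPM (140 UMIs), and Krt17 at 0 UMIs and 1.19 CPM. In control, with 25 Pth-high cells, 10 keratins could be compared with the others. Krt5, Krt17 and Krt19 were at least 2-fold lower there, and no keratin was 2-fold higher, Krt7 included. The control median was -0.56 against 0.31 for all genes. The Foxn11089/1089 library held enough Pth-high cells to compare 15 keratins with the others, and the values that follow are from it. Krt7 alone was at least 2-fold higher (background 24.7%), at log2 2.28 [1.95, 2.60]. Lower were 9 (background 13.2%), among them Krt15 at -4.89, Krt17 at -4.21, Krt5 at -3.32 and Krt19 at -3.28. The median was -2.92 with Krt6a, at 0 UMIs, set to the 3-UMI floor, against 0.27 for all genes, while Krt18 stood at 0.66 and Krt8 at -0.74.

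The thyroid-marker cells, which were compared in the library labelled Tbx1neo2/neo2, held Krt18 at 480 CPM, Krt8 at 400 CPM, Krt10 at 37.8 CPM, Krt7 at 29.04 CPM and Krt19 at 26.4 CPM. Krt7 was seen in 69.2% of them, against 33.8% of the others and 1.35% of hematopoietic cells of that library. After thinning it was seen in 5.61% of them and 8.55% of the others, which held it at 38.1 CPM. Krt5 stood at 9.63 CPM, Krt17 at 2.48 CPM and Krt14 at 1 UMI. Of 10 keratins compared with the others, 0 were at least 2-fold higher (background 7.82%) and 6 were lower (background 10.6%), namely Krt1, Krt5, Krt14, Krt15, Krt17 and Krt19, with a median of -1.96 against 0.02. The basal and activated keratins were thus at low levels in both the Pth-high and the thyroid-marker cells, and Krt7 was at 13.9 to 29.04 CPM in the larger sets of each.

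Between the library labelled Tbx1neo2/neo2 and the control, the summed keratin level of the Epcam-positive cells differed little, at 4420 against 4225 CPM (log2 0.07 [0.05, 0.08]). The makeup of that sum differed. Within subgroups the summed log2 ratio was 0.28 in Krt5-high, 0.32 in Psmb11-positive and -0.29 in the other cells. These directions and those that follow rest on a label that the Tbx1 counts do not bear out. This comparison and the one with Foxn11089/1089 share the control library. Krt8, at 1513 against 688 CPM, was higher by log2 1.14 [1.11, 1.16], and Krt7, at 19.3 against 8.44 CPM, by 1.20 [0.99, 1.40]. These 2 of 18 keratins passed 2-fold, where 17.4% of genes did. Lower by 2-fold were 3 (background 3.81%), Krt36 at -1.22 [-1.90, -0.56], Krt77 at -1.03 [-1.64, -0.43] and Krt33b at -1.01 [-1.76, -0.28], each with under 100 UMIs in either library. Krt6a (-0.92), Krt72 (-0.80), Krt16 (-0.68), Krt17 (-0.58), Krt18 (-0.50) and Krt14 (-0.48) were lower and under 2-fold, and Krt19 (0.46) and Krt5 (0.38) were higher. The median of all genes was itself shifted by 0.41 in this comparison, so Krt5 lay just under the typical gene, and the keratin median was -0.43. Counted from that shifted median, 0 keratins were 2-fold higher (background 7.12%) and 6 were 2-fold lower (background 9.66%), with Krt6a, Krt16 and Krt72 added. With median-of-ratios size factors Krt7 was at 0.83 and Krt8 at 0.77, under 2-fold.

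Within subgroups Krt8 kept its direction in the library labelled Tbx1neo2/neo2, and Krt7 did not. In Krt5-high cells Krt8 stood at 2619 against 1013 CPM, log2 1.37 [1.31, 1.43], and was the single keratin of 14 that passed 2-fold upward (background 14.3%). Krt7 was the single one that passed downward (background 3.43%), with 40 against 81 UMIs and log2 -1.21 [-1.80, -0.65]. Krt5 (0.74), Krt19 (0.58), Krt17 (-0.31), Krt14 (-0.38), Krt18 (-0.40), Krt72 (-0.46) and Krt6a (-0.67) lay under 2-fold, with a median of -0.34 against 0.35. In Psmb11-positive cells Krt8 stood at 2397 against 882 CPM, log2 1.44 [1.41, 1.47], again the single keratin of 12 higher (background 15.1%), and Krt36 at -1.11 [-2.15, -0.15] the single one lower (background 3.08%). Krt18 was at -0.22 and Krt7 at -0.76 [-1.26, -0.27] there, with a median of -0.50 against 0.40.

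The higher Krt7 of the library labelled Tbx1neo2/neo2 was seen in the others, and its thyroid-marker cells held 29.04 CPM. Among the others Krt7 stood at 38.1 against 7.64 CPM (481 and 91 UMIs), log2 2.32 [1.99, 2.66], and was seen in 33.8% against 9.60% of cells (8.55% against 1.39% after thinning). Krt5 stood at 54.0 against 218 CPM there (log2 -2.01), Krt17 at 18.1 against 83.4 CPM (-2.21), and Krt19 at 71.4 against 38.2 CPM (0.90). The others are the cells that no gate chose, so they need not be the same kind of cell in each library, which was not tested.

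In Foxn11089/1089 Epcam-positive cells the summed keratin level was 1286 CPM against 4225 CPM in control, log2 -1.72 [-1.73, -1.70]. The mix of cells differed too, with Psmb11-positive cells at 6.18% against 53.9% and the others at 82.3% against 34.5%. Within subgroups the summed log2 ratio was -1.12 in Krt5-high, -1.02 in Psmb11-positive, -0.43 in the other and -0.27 in Pth-high cells. Krt18 stood at 376 against 2304 CPM, 6.12-fold lower (log2 -2.61 [-2.63, -2.60]). Krt17 stood at 22.4 against 445 CPM, 19.8-fold lower (-4.31 [-4.38, -4.24]), and Krt14 at 1.45 against 15.8 CPM, 10.9-fold lower (-3.44 [-3.74, -3.15]). Keratins found mainly in control Krt5-high cells were also lower, with Krt6a at -3.81, Krt72 at -5.51 (12 against 209 UMIs), Krt16 at -6.07 (4 against 103 UMIs) and Krt77 at -2.41. Krt5 was lower at -1.39 [-1.41, -1.36]. These 8 of 18 keratins passed 2-fold downward, where 7.22% of genes did.

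Higher by 2-fold in Foxn11089/1089 were 2 keratins (background 18.4%). Krt15 stood at 24.5 against 4.36 CPM, 5.62-fold higher (log2 2.49 [2.24, 2.75]), and Krt20, a keratin of gut and urothelial linings, had 47 against 3 UMIs (2.58 [0.95, 4.91]). The other 8 lay within 2-fold, with Krt19 at 0.69, Krt10 at 0.12, Krt1 at -0.05, Krt8 at -0.51 and Krt7 at -0.98. The keratin median was -0.74 and that of all genes 0.31, and counted from the latter 2 were higher (background 11.4%) and 9 lower (background 11.3%), with Krt7 added. The Krt5-high cells were 2.13% of Epcam-positive cells in this library against 10.04% in control, a share that moves with the sums. At 500 CPM of Krt5 or more the shares were 12.4% and 17.2%. With each subgroup weighted by its share in control, Krt5 was at -0.30 and no longer passed 2-fold.

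Within Krt5-high cells, of 14 keratins compared between Foxn11089/1089 and control, 8 were at least 2-fold lower (background 9.68%), namely Krt17 at -4.15 [-4.31, -4.00], Krt18 at -2.01 [-2.09, -1.94], Krt14 at -4.61, Krt6a at -4.83, Krt72 at -5.50 [-8.56, -3.63], Krt77 at -2.31, Krt7 at -1.55 and Krt16, with 0 against 91 UMIs. Krt5 itself, which the gate chose, was at -0.34, Krt8 at 0.14, Krt19 at 0.46 (225 against 163 CPM) and Krt10 at 0.53 (51.6 against 35.7 CPM). Krt15 was the single one higher (background 14.4%), at 71.1 against 8.30 CPM (3.10 [2.47, 3.77]). The median was -1.78, with Krt16 set to the 3-UMI floor, against 0.21 for all genes. A cell passing the same Krt5 gate thus held 213 CPM of Krt17 on average in Foxn11089/1089 and 3786 CPM in control, and 76 and 188 cells stood behind these values.

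Psmb11-positive cells of Foxn11089/1089 showed the lower Krt18 and higher Krt15 as well. They were 6.18% of Epcam-positive cells against 53.9% in control. The cells compared need not be of the same kind, which was not tested. Krt18 stood at 785 against 3032 CPM (log2 -1.95 [-1.997, -1.902]), Krt17 at 9.30 against 80.3 CPM (-3.11), Krt14 at 4 against 132 UMIs (-3.31) and Krt7 at 8 against 94 UMIs (-1.82), and these were the 4 of 12 keratins at least 2-fold lower (background 7.62%). Krt15 stood at 31.5 against 2.98 CPM (3.41 [2.93, 3.90]) and Krt19 at 59.2 against 16.2 CPM (1.87 [1.62, 2.11]), the 2 that were higher (background 12.4%). Krt8 (0.22) and Krt5 (-0.23) were within 2-fold, and the median was -0.18 against 0.19. Among the others, Krt15 stood at 26.5 against 5.29 CPM and was seen in 25.9% of Foxn11089/1089 cells, Krt18 at 311 against 793 CPM and Krt17 at 22.1 against 83.4 CPM. Among Pth-high cells, where Krt18 was at -0.46 [-0.66, -0.25] and Krt8 at 0.18 [-0.15, 0.53], Krt15 was at 3.31 CPM (1 UMI) in control and 0.895 CPM in Foxn11089/1089. Krt15 was therefore high in 3 of the 4 Foxn11089/1089 subgroups compared and low in the Pth-high cells.

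**Figure D3:**
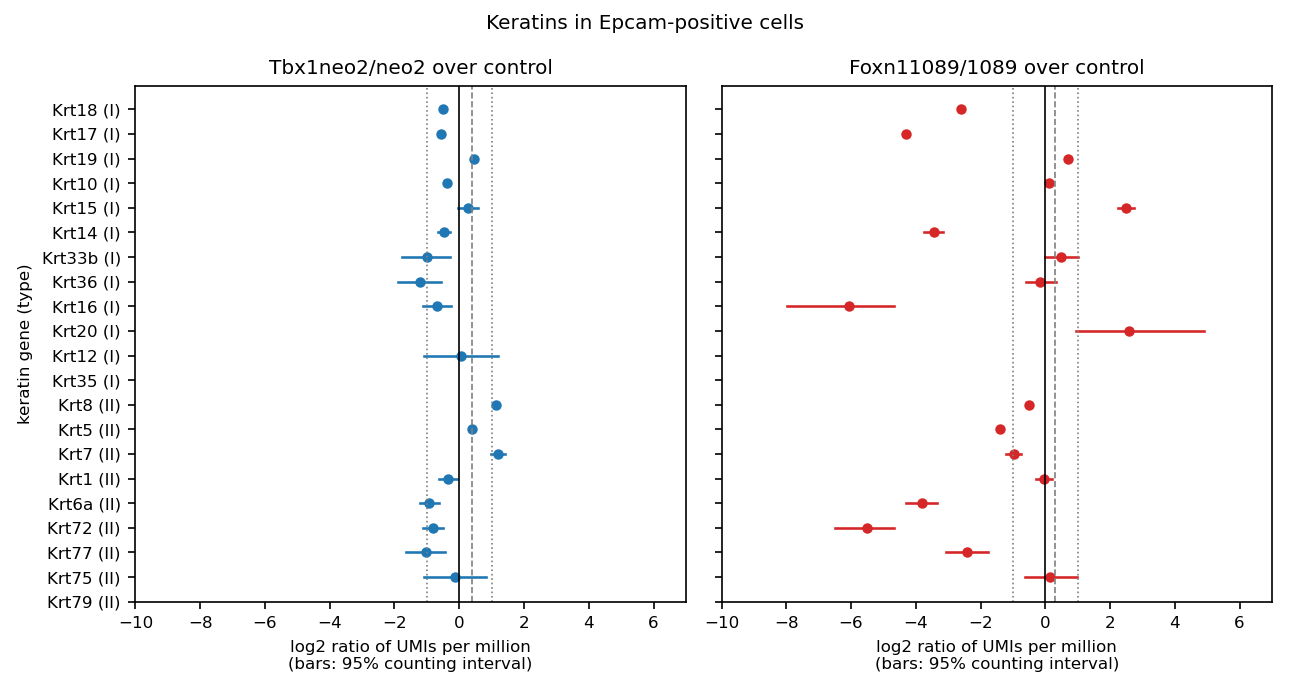
Log2 ratio of each keratin to control in Epcam-positive cells, for the library labelled Tbx1neo2/neo2 (left) and Foxn11089/1089 (right), with 95% counting intervals, dotted lines at 2-fold and a dashed line at the median of all genes (0.41 and 0.31). Krt8 and Krt7 lie past 2-fold on the left, and Krt17, Krt14, Krt6a, Krt72 and Krt16 lie under -3 on the right, where Krt15 and Krt20 lie above 2.

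The balance of Krt8 to Krt18 differed between the libraries in every subgroup that could be compared. Summed over Epcam-positive cells there were 0.299 [0.294, 0.303] Krt8 UMIs for each Krt18 UMI in control, 0.930 [0.920, 0.941] in the library labelled Tbx1neo2/neo2 and 1.29 [1.27, 1.31] in Foxn11089/1089. A ratio of the pair within a library does not depend on the scaling to total UMIs, and thinning each cell to 2000 UMIs gave 0.290, 0.955 and 1.34. The ratios were 0.230, 0.783 and 1.02 in Krt5-high cells, 0.291, 0.921 and 1.30 in Psmb11-positive cells and 0.439, 1.39 and 1.48 in the others. Control was lowest each time. Pth-high cells stood at 0.361 [0.273, 0.473] in control and 0.562 [0.537, 0.589] in Foxn11089/1089, and the thyroid-marker cells of the library labelled Tbx1neo2/neo2 at 0.834.

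The shift was seen cell by cell. Among Epcam-positive cells with at least 10 UMIs of the pair (1645, 747 and 2289 cells), 5.05%, 56.1% and 66.4% held more Krt8 than Krt18. The median Krt8 share of the pair was 25.6%, 51.7% and 58.8% in all such cells, 24.5%, 50% and 58.5% in Psmb11-positive cells, and 19.0%, 46.2% and 50.7% in Krt5-high cells. The parts of the shift differed by library. In the library labelled Tbx1neo2/neo2 Krt8 was higher and Krt18 somewhat lower, and in Foxn11089/1089 Krt18 was lower while Krt8 lay within 2-fold of control. The UMIs of the pair in hematopoietic cells had ratios of 0.264, 0.517 and 0.922, which ran in the same order. Whether sample handling or mapping of the pair differed between the libraries was not tested, and with 1 library each genotype and library cannot be told apart.

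**Figure D4:**
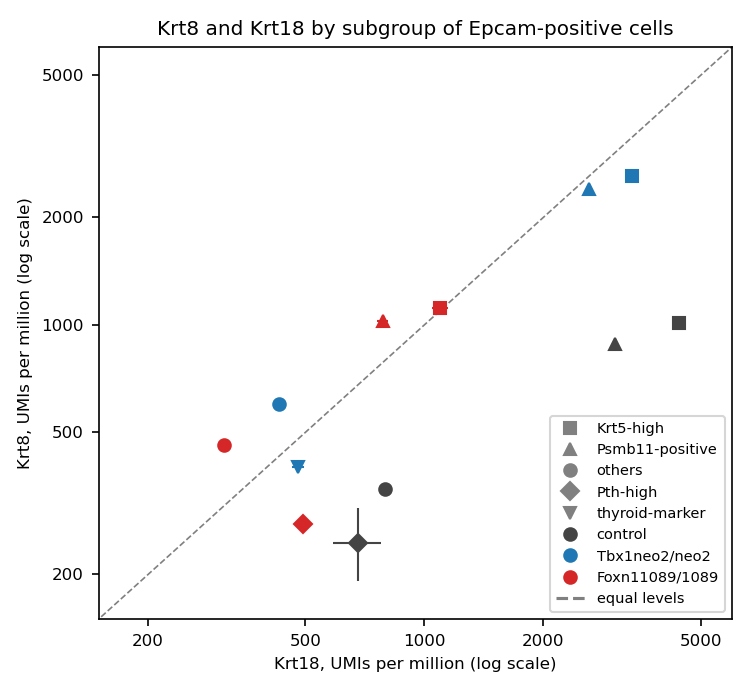
Krt8 against Krt18 level in CPM (log axes), with 1 point for each Epcam-positive subgroup (shape) and library (colour), 95% counting bars, and a dashed line at equal levels. All control points lie under the line, and the Foxn11089/1089 points of the Krt5-high, Psmb11-positive and other cells lie on or above it, as does that of the other cells of the library labelled Tbx1neo2/neo2.

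Type I keratins made up 67.8%, 46.1% and 42.2% of keratin UMIs in Epcam-positive cells. Since Krt18 and Krt17 are type I and Krt8 and Krt5 are type II, this share moved with those 4 genes. It was 57.9%, 37.9% and 24.7% in Krt5-high cells, where Foxn11089/1089 held 3943 CPM of Krt5 with 213 CPM of Krt17 and 2.52 CPM of Krt14. It was 75.7%, 51.2% and 45.3% in Psmb11-positive cells, 62.7%, 45.5% and 41.8% in the others, and 69.2% and 63.3% in Pth-high cells of control and Foxn11089/1089. Type I and type II transcripts were therefore unequal in most classes, and transcript counts say nothing of the protein pairs.

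Outside the Epcam-positive cells, 11 keratins reached 30 UMIs in some class (Krt1, Krt5, Krt7, Krt8, Krt10, Krt15, Krt17, Krt18, Krt19, Krt20 and Krt79), and 0 were measured there alone. Each level was read as a percentage of the Epcam-positive level beside that of 9 other epithelial genes, since free RNA can give such UMIs to cells that do not express a gene, and its part was not tested. In mesenchymal cells the median of those 9 was 0.877%, 0.515% and 1.07%, their ranges were 0.234% to 2.54%, 0.332% to 6.15% and 0.828% to 3.04%, and Krt5, Krt8, Krt17 and Krt18 lay between 0.393% and 2.22%. In hematopoietic cells the medians were 0.916%, 1.13% and 1.37% and the ranges wide, at 0.361% to 91.9%, 0.416% to 61.1% and 0.881% to 27.2%, with Krt18 at 1.17%, 0.784% and 2.39% and Krt8 at 1.03%, 0.436% and 1.71%. In mesenchymal cells these 4 keratins thus lay within the range of the other epithelial genes, and no expression is read from them.

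Krt10 was the clear exception, at epithelial levels in mesenchymal cells. It stood at 60.2, 36.0 and 49.2 CPM there, 128%, 100% and 96.9% of the Epcam-positive level, and was seen in 43.9%, 59.4% and 49.6% of mesenchymal cells. It stood at 21.2, 15.0 and 18.3 CPM in hematopoietic cells and at 16.3, 18.4 and 15.5 CPM in endothelial cells. In red blood cells it had 2 UMIs in control and 41 in Foxn11089/1089 (0.719 and 1.94 CPM), so it was far lower there. A second gene lies across Krt10 on the other strand, and whether counting used strand was not given in the sources used here. Krt79 was higher in mesenchymal than in Epcam-positive cells, at 1.08, 1.17 and 0.871 CPM (383%, 471% and 382%), from 12, 52 and 34 UMIs. Krt20 was also above its Epcam-positive level in control and Tbx1neo2/neo2 mesenchymal cells, from 18 and 24 UMIs, and had 17 in Foxn11089/1089.

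Krt7, Krt19 and Krt1 lay between these patterns. In mesenchymal cells Krt19 had 19, 309 and 442 UMIs (4.41%, 13.02% and 18.1% of the Epcam-positive level), carried by 0.569%, 3.78% and 2.65% of cells. Krt7 was at 16%, 15.1% and 89.6% of its Epcam-positive level, carried by 0.379%, 1.80% and 1.19% of cells. Their UMIs therefore sat in few cells, unlike those of Krt10. Krt1 stood at 1.26, 2.46 and 2.13 CPM in mesenchymal cells, 19.99%, 49.4% and 34.9% of the epithelial level. Endothelial cells of the library labelled Tbx1neo2/neo2 held 174 UMIs of Krt18 in 58.7% of 92 cells (50.8 CPM) and 17 UMIs of Krt8, while those of control held 9 Krt18 UMIs in 44 cells and those of Foxn11089/1089 held 19 in 97 cells.

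**Figure D5:**
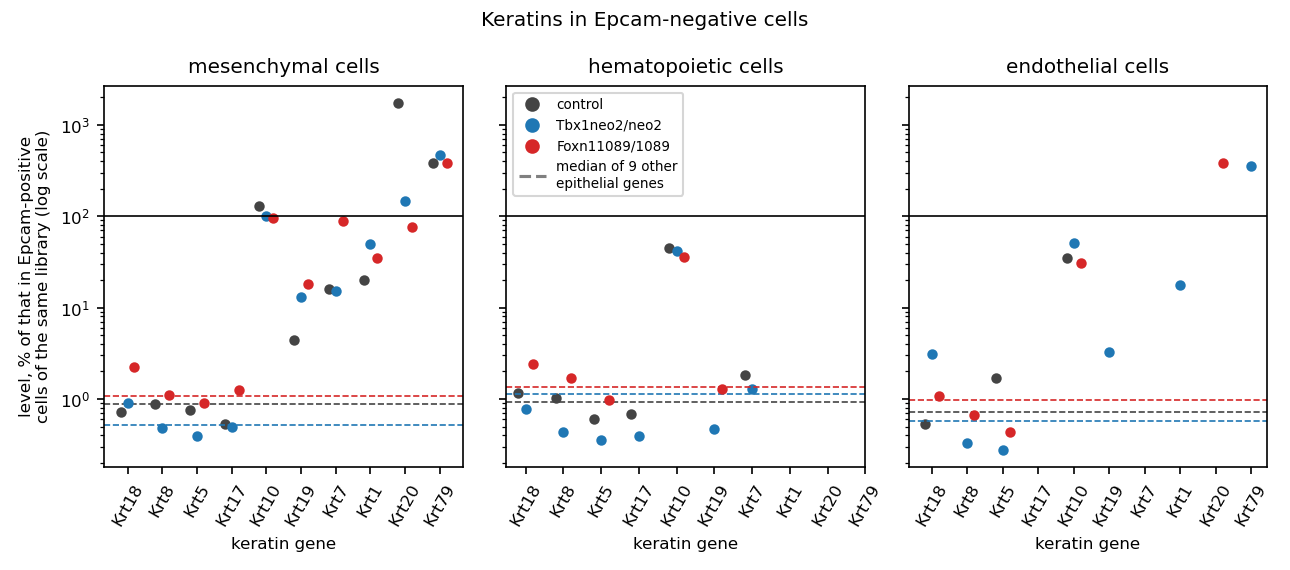
Level of 10 keratins in mesenchymal, hematopoietic and endothelial cells as a percentage of the Epcam-positive level of the same library (log axis), with a solid line at 100% and dashed lines at the median of 9 other epithelial genes in each library. Krt10 and Krt79 lie near or above 100% in mesenchymal cells, and Krt5, Krt8, Krt17 and Krt18 lie near the dashed lines there.

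Krt8 and Krt18 summed to 500 CPM or more in 90.5%, 94.9% and 63.0% of Epcam-positive cells and in 0.474%, 0.310% and 0.192% of mesenchymal cells. The Epcam-negative cells that carried no class's markers had a larger share, 73 of 392 cells in control (18.6%), 64 of 377 in the library labelled Tbx1neo2/neo2 (17.0%) and 69 of 700 in Foxn11089/1089 (9.86%). Krt18 stood at 923, 90.1 and 34.7 CPM and Krt8 at 251, 112 and 43.9 CPM in these unnamed cells. Some cells with the simple pair were therefore outside the Epcam gate.

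The partners of keratins were read from lists that were chosen with results of these data known. In control Krt5-high cells the stratification genes tested were high together. Of 13 listed 8 were tested, and 8 of 8 were at least 2-fold above Psmb11-positive cells, with a median log2 of 4.30 against -0.08 for all genes. As a background for these lists, 10.2% of all genes were higher and 11.2% lower. Krtdap, a secreted keratinocyte differentiation product, stood at 1388 against 39.8 CPM (5.12). Sprr1a and Tgm1, a precursor and a crosslinking enzyme of the cornified envelope, were at 7.83 and 5.17. Desmosome genes, which anchor keratin filaments at cell contacts, were higher in 7 of 10, among them Dsg3 at 5.20, Pkp1 at 3.53 and Perp at 2.70, and lower in 1, Dsc3 (3 against 65 UMIs). Of 8 hemidesmosome and plakin genes, which link keratins to the basement membrane and to junctions, Ppl (4.08) and Evpl (2.62) were higher and Dst (-1.26) and Itga6 (-1.18) lower.

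Of 12 regulators of keratin genes 9 were higher in control Krt5-high cells, such as Tfap2c at 5.63, Grhl3 at 3.95 and Klf5 at 2.05, while Trp63, the regulator of basal epithelial identity, was at -0.32 and Foxn1 at -0.22. Of 8 other intermediate filament genes, Vim (3.19) and Lmna (3.53) were higher and Des, Nefl and Nefm lower. The counts in the library labelled Tbx1neo2/neo2 were 8 of 8 stratification, 6 of 10 desmosome and 10 of 13 regulator genes higher, and in Foxn11089/1089 7 of 7, 7 of 9 and 8 of 12, where 9.36% and 7.19% of all genes were higher. In Foxn11089/1089 the 7 stratification genes tested, of 13 listed, thus stood higher in Krt5-high than in Psmb11-positive cells. Among them Krtdap was at 965 against 52.2 CPM and Spink8 at 890 against 81.1 CPM. Lor, which was higher in control, was not among the genes tested. Krt6a and Krt16 had 4 and 0 UMIs in these Krt5-high cells.

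The same lists were compared between genotypes, where the backgrounds were 17.4% higher and 3.81% lower for the library labelled Tbx1neo2/neo2 and 18.4% and 7.22% for Foxn11089/1089. In Epcam-positive cells labelled Tbx1neo2/neo2 against control, 4 of 9 hemidesmosome and plakin genes were at least 2-fold higher (Itga6 1.64, Evpl 1.41, Dst 1.37 and Ppl 1.20), 1 of 10 desmosome genes was (Pkp2 1.37), 3 of 13 regulators were (Trp63 1.22, Klf5 1.21 and Ovol1 1.07), and 1 of 9 other intermediate filament genes was (Synm). Of 10 stratification genes 0 were higher and 2 were lower (Krtdap -1.02 and Spink8 -2.06), with a median of -0.71. In Foxn11089/1089 against control, 2 of 10 stratification genes were higher (Spink8 3.32 and Ivl 1.22) and 4 lower (Dmkn -2.70, S100a14 -2.65, Lor -2.23 and Krtdap -1.15), with a median of -0.79. Of 10 desmosome genes 1 was lower (Dsc2 -1.16) and 1 higher (Pkp2), of 9 hemidesmosome and plakin genes 1 was lower (Dst -1.53), of 10 other intermediate filament genes 3 were higher (Des, Nefl and Nefh), and of 13 regulators 2 were higher (Trp63 1.17 and Klf5 1.03).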

How the data were processed

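The 3′ droplet libraries were deposited by the authors as raw UMI counts per gene and barcode, made with Cell Ranger 3.0.0 on mm10, with Seurat named for later steps in the submitters' processing notes. Here, cells with at least 200 genes, under 20% mitochondrial UMIs and, for gates, at least 2000 UMIs were kept. UMIs were summed per class and library and divided by the class total (CPM). Pth-high cells had at least 3 Pth UMIs and 500 CPM, thyroid-marker cells at least 3 UMIs and 50 CPM, Krt5-high cells at least 5 Krt5 UMIs, Psmb11-positive cells at least 2 Psmb11 UMIs and 50 CPM, in that order. Epcam-negative cells had 0 or under 20 CPM of Epcam, and Epcam-positive cells with markers of another class were set apart. Cells near the Epcam limit were few, with 32, 17 and 14 at 80 to 100 CPM and 8, 2 and 1 at 100 to 125 CPM. Likely doublets (Scrublet, 0.8% per 1000 barcodes) were kept and left out in an alternative. Genes with at least 30 UMIs in the cells compared were called past 2-fold (10-fold against Epcam-negative cells). That limit was on the sum of the groups compared, so a gene could pass it through 1 group alone. Levels carry exact Poisson, shares Clopper-Pearson and ratios conditional binomial 95% intervals. Named genes were every measured member and genes of the stated lists. Members and lists were chosen with earlier results of these data known. Scripts were tested on simulated data. Python 3.11.15, numpy 2.4.6, scipy 1.17.1, pandas 2.3.3, scanpy 1.11.5 and matplotlib 3.10.9 were used. Promoters and positions came from RefSeq GRCm38.p6 and the GRCm38 annotation.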

Additional observations from a re-analysis of the deposited data

Results flagged for a closer look

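Krt7 ran in opposite directions in subgroups of the same contrast. In the library labelled Tbx1neo2/neo2 over control it stood at log2 2.32 in the others, the Epcam-positive cells that passed no gate, and at -1.21 in Krt5-high cells. The intervals of counting error do not overlap, at [1.99, 2.66] and [-1.80, -0.65], and the difference was not tested, since each genotype had 1 library. The UMIs behind it were 481 and 91 in the others and 40 and 81 in Krt5-high cells. In the same others cells Krt5 was at 54.0 against 218 CPM and Krt19 at 71.4 against 38.2 CPM, and their part in the Krt7 values was not tested.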

How the results depend on the processing

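No paired analysis was possible because each genotype had 1 library. Of 151 values of summary results under 18 planned and 3 added alternatives, the last chosen after seeing the data, 116 moved by less than the limit and 35 moved by more. The Foxn11089/1089 count of 10 changed keratins became 16 at 10 or more UMIs a gene, and 6 after thinning and 6 in Psmb11-positive cells only, where fewer genes were tested. The Tbx1neo2/neo2 count of 5 became 3 with cells of mixed markers kept, 3 at 100 or more UMIs, 2 without Pth-high and thyroid-marker cells, 2 at the control library's subgroup shares, 2 in Psmb11-positive cells only and 8 without Krt5-high cells. Krt5-high over Psmb11-positive counts became 5 in control, 3 in Tbx1neo2/neo2 and 3 in Foxn11089/1089 after thinning, 8 in Foxn11089/1089 at the 80th percentile of Krt5 and 7 in Tbx1neo2/neo2 at 100 or more UMIs. Counts past 10-fold over Epcam-negative cells became 6, 4 and 5 after thinning. The summed log2 ratio in Foxn11089/1089 became -1.65 at an Epcam limit of 200 CPM, -1.73 with mixed cells kept, -1.83 as a mean over cells, -1.82 after thinning, -1.66 without Pth-high and thyroid-marker cells, -0.95 at control subgroup shares, -1.02 in Psmb11-positive cells only and -1.39 without Krt5-high cells. In Tbx1neo2/neo2 it became, in the same order, 0.11, 0.13, 0.076, 0.084, 0.27, 0.24, 0.32 and 0.011, and 0.087 without likely doublets and 0.043 without mitochondrial, hemoglobin and ribosomal protein genes. Among single genes, Krt7 in Tbx1neo2/neo2 turned to -0.76 in Psmb11-positive cells only and Krt5 in Foxn11089/1089 to 0.062 without Krt5-high cells. With median-of-ratios size factors Krt7 (0.83) and Krt8 (0.77) no longer passed 2-fold in Tbx1neo2/neo2, and Krt6a (-1.29), Krt72 (-1.16) and Krt16 (-1.05) passed. At control subgroup shares Krt5 in Foxn11089/1089 was -0.30. Where no construction is named, the cause was not tested.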

Other observations

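Keratins that were traces or at 0 in Epcam-positive cells had a few UMIs elsewhere. Krt24 had 22 UMIs in the unnamed Epcam-negative cells of the library labelled Tbx1neo2/neo2, in 3.98% of them, and 0 in Epcam-positive cells. Krt23 had 11 UMIs in mesenchymal cells of that library and 13 in those of Foxn11089/1089. Krt222 had 10 UMIs in mesenchymal and 8 in neural cells of the library labelled Tbx1neo2/neo2, and Krt13 had 8 in its mesenchymal cells. Epcam-negative cells with markers of more than 1 class held Krt19 at 58.1 CPM and Krt7 at 46.3 CPM in the same library.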
